A study of Mus musculus with 36 samples.

Results

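The 10 macrophage chemokine ligand genes Ccl2, Ccl3, Ccl4, Ccl5, Ccl6, Ccl7, Ccl9, Cxcl2, Cxcl10 and Cxcl16 were chosen by name and followed through B cell to macrophage transdifferentiation (BMT), the conversion of B cells into macrophage-like cells by the transcription factor C/EBPα. Earlier results of these data were known when the genes were chosen, so that counts of them set against all genes are a description. All 10 were among the 40354 genes of the count tables and passed the low-count filter, which left 17277 genes for testing. Ccl4 and Ccl5 had between 1 and 7 counts in each library at 0 hours post-induction (hpi), and passed that filter only through later timepoints.

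Chemokines are small secreted proteins that draw leukocytes along a gradient through G protein-coupled receptors, and macrophages are a major source of them. Ccl2 and Ccl7 recruit monocytes through CCR2, Ccl3, Ccl4 and Ccl5 draw monocytes and T cells, and Ccl6 and Ccl9 are mouse ligands of CCR1. Cxcl2 attracts neutrophils through CXCR2, Cxcl10 is the interferon-inducible ligand of CXCR3, and Cxcl16 is made as a transmembrane protein that can be shed and binds CXCR6.

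The cells were B cells selected with an antibody from mouse bone marrow, and the age of the animals is not given in the sources used here. All of them carried a retrovirus with C/EBPα fused to the hormone-binding part of the estrogen receptor and a human CD4 marker. Positive cells were plated on inactivated mouse embryo fibroblast feeders, in medium that held IL-7, IL-3, FLT-3, CSF-1 and SCF. The study's methods add that the medium was renewed every 2 days without IL-7. The factor was wild-type (WT), or had an arginine replaced by alanine (R35A) or by lysine (R35K). At 0 hpi the factor was present and not induced, and the later cells had been given estradiol (E2) for 1, 3, 6, 18 or 120 h, which brings the fusion protein into the nucleus. Each of the 18 combinations of 3 constructs and 6 timepoints had 2 libraries, 36 in all. The study's methods give removal of feeder cells by adherence for a phagocytosis assay, and feeder depletion for a chromatin assay. Their section on RNA names no such step. No cells with E2 and no factor, and none kept uninduced for the same time, were analysed here. The factor, E2, time in culture and the renewal of medium without IL-7 therefore cannot be told apart. R35K counts came in a table of their own, so that a level in R35K cells cannot be told apart from that table. The comparison between constructs asks whether replacing the arginine alters how fast the ligand genes respond.

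The libraries held between 13044456 and 23131776 counts. The 2 libraries of each group differed beyond sampling noise, with a chi-square per degree of freedom between 1.12 (R35A at 6 hpi) and 14.6 (WT at 6 hpi). All 10 macrophage markers examined were called higher and all 9 pre-B cell markers lower at 120 hpi in each construct. Of all 17277 genes tested, 25.2% in WT, 26.5% in R35A and 26.7% in R35K cells were higher there. Those lower were 6311, 6095 and 6140 genes. Lyz2, the macrophage lysozyme gene, had 35.4 and 36.9 CPM (read counts divided by the scaled library total) at 0 hpi and 11927 and 11697 after 120 h in WT libraries. The 12 feeder fibroblast markers were present as well, with summed levels in WT libraries of 1810 and 1859 CPM before induction, 3666 and 3677 after 1 h and 207 and 177 after 120 h. The 6 T and NK cell markers summed to at most 1.42 CPM in any library and none passed the filter. The 8 neutrophil markers summed to 60.1 and 58.6 CPM before induction and 1.97 and 2.64 after 1 h in WT libraries, and the 6 dendritic and mast cell markers to 12.96 and 13.2 CPM before induction and 24.6 and 23.7 after 1 h. In these bulk libraries, more cells that express a chemokine and more mRNA per cell cannot be told apart.

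**Figure D1:**
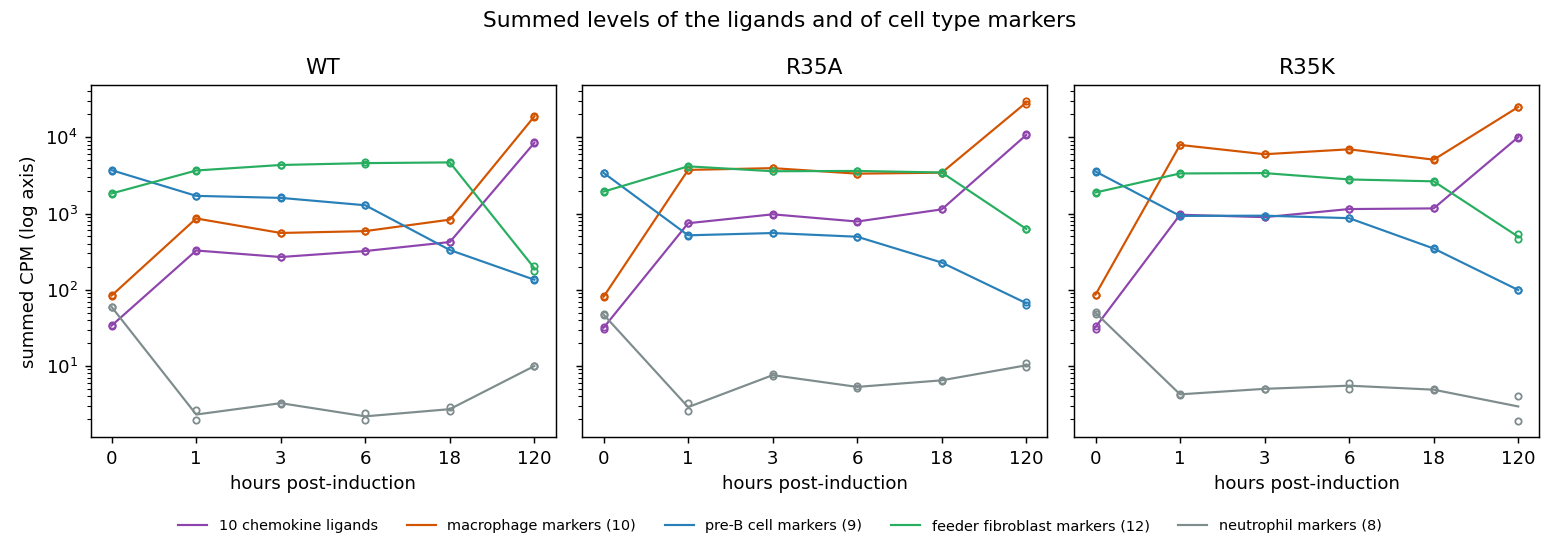
Summed CPM (log axis) of the ligand genes and of marker lists against hours post-induction, 1 panel per construct, with points for single libraries and lines for means of 2. The ligand sum was lowest at 0 hpi (between 30.65 and 34.2 CPM) and highest at 120 hpi (between 8387 and 10921 CPM) in every construct. The feeder fibroblast sum was lowest at 120 hpi, and its part in the ligand sum was not tested.

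The CC ligand genes lie in 2 clusters on mouse chromosome 11 (build mm10). Ccl2 (chr11:82035571-82037453, plus strand) and Ccl7 (chr11:82045712-82047525, plus strand) are neighbours in the first. The second holds Ccl5 (chr11:83525778-83530518, minus strand), Ccl9 (chr11:83572919-83578636, minus strand), Ccl6 (chr11:83587882-83593087, minus strand), Ccl3 (chr11:83647844-83649355, minus strand) and Ccl4 (chr11:83662584-83664683, plus strand). Cxcl16 lies elsewhere on that chromosome (chr11:70453983-70459984, minus strand), and Cxcl2 (chr5:90903871-90905938, plus strand) and Cxcl10 (chr5:92346638-92348889, minus strand) are on chromosome 5. Each is a protein-coding gene with between 3 and 5 exons in the transcript used for its length. Ccl6 lies within the span of the noncoding gene E230016K23Rik on the opposite strand, and the strand setting of the counts is not given in the sources used here. E230016K23Rik, named here for its position, had at most 219 counts in any library, against up to 45629 for Ccl6.

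Promoter sequences were held for 5 of the genes (Ccl3, Ccl6, Ccl9, Cxcl2 and Cxcl10; RefSeq, GRCm38.p6), as windows from 250 bases before to 50 bases after the start site. They were searched on both strands for the letters of C/EBP (TTGCNNAA), PU.1 (GAGGAA), NF-kB (GGG, any 3 bases, TTCC), AP-1 (TGANTCA), the interferon-stimulated response element or ISRE (GAAA, any 2 bases, GAAA) and the TATA box (TATAAA). Of 32851 mouse promoter windows of that length, 10.8% held the C/EBP letters, 28.3% those of PU.1, 5.56% those of NF-kB, 7.81% those of AP-1, 3.44% those of the ISRE and 13.6% those of the TATA box. The 250 bases before the start site are shown 5′ to 3′ on the gene's strand for 4 genes that differ in these letters, with matches in capitals.
Cxcl2 (chr5:90903649-90903898): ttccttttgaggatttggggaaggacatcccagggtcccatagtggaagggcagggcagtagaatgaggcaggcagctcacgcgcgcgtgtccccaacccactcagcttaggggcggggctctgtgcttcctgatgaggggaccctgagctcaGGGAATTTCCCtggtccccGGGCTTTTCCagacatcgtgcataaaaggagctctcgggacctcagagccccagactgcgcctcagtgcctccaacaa
Cxcl10 (chr5:92348890-92349139): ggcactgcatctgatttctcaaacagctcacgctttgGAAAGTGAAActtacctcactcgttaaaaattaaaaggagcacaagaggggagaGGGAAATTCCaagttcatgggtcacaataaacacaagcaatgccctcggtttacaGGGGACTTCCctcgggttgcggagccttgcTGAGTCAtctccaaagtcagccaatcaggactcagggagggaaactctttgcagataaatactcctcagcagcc
Ccl9 (chr11:83578637-83578886): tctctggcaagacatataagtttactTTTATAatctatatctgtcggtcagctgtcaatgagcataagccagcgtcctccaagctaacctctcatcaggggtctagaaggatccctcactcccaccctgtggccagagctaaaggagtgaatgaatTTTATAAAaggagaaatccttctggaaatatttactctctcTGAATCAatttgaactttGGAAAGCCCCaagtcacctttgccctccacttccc
Ccl6 (chr11:83593088-83593337): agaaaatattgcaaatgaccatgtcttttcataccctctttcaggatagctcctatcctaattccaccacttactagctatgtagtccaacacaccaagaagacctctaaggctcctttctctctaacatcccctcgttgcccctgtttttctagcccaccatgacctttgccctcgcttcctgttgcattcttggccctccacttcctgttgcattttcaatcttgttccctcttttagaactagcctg
In Cxcl2 the capitals mark NF-kB matches that begin at −97 and −78, and the first overlaps a match on the opposite strand at −96. Cxcl10 held an ISRE match at −213, NF-kB matches at −159 and −104 and an AP-1 match at −74. Ccl9 held TATA letters at −224, −94 and −92, of which the last pair overlap on opposite strands, an AP-1 match at −53 and an NF-kB match at −35. Beyond the bases shown, Cxcl2 held a PU.1 match at 3 after the start site, and Ccl3 held one at −33. Ccl6 held none of the letters searched, and those of C/EBP were in none of the 5 windows. A match is a run of letters and not a measured binding site.

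In WT cells the ligand genes were higher at 1 hpi than at 0 hpi, and all but Ccl5 rose from 18 to 120 hpi. Between 1 and 18 hpi only Cxcl2 was called changed by edgeR, while DESeq2 called 3 genes. Levels moved within that time, with Ccl6 means of 93.8 CPM after 1 h, 64.9 after 3 h and 125.8 after 18 h. The steps from 1 to 3 and from 1 to 6 hpi were not tested. Counts are given for the 8 genes other than Ccl4 and Ccl5, since those passed the low-count filter only through timepoints at which they were higher than at 0 hpi. At 1 hpi all 8 were called higher by edgeR (adjusted p of at most 0.05 and at least 1.5-fold), against 10.0% of all genes tested. After 3 h the count was 7, all but Cxcl10 (background 12.0%), and it was 8 after 6 h (15.5%), 18 h (23.7%) and 120 h (25.2%). The median log2 change of the 8 genes was 2.95 after 1 h, 2.503 after 3 h, 2.35 after 6 h, 3.17 after 18 h and 7.86 after 120 h, where the medians of all genes lay between −0.23 and 0.02. From 18 to 120 hpi all 8 rose (background 30.4%), as did Ccl4, and Ccl5 fell (30.1% of genes were lower). The feeder fibroblast markers moved with the early rise: all 12 were called higher at 1 hpi in WT cells, with a median log2 change of 0.96, and their part in the early values was not tested. At 120 hpi all 12 were called lower in WT cells, as were 6311 of all 17277 genes, and their part in the later values was not tested. The macrophage markers moved with the ligands too, 8 of 10 being called higher at 1 hpi with a median log2 change of 2.97.

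**Figure D2:**
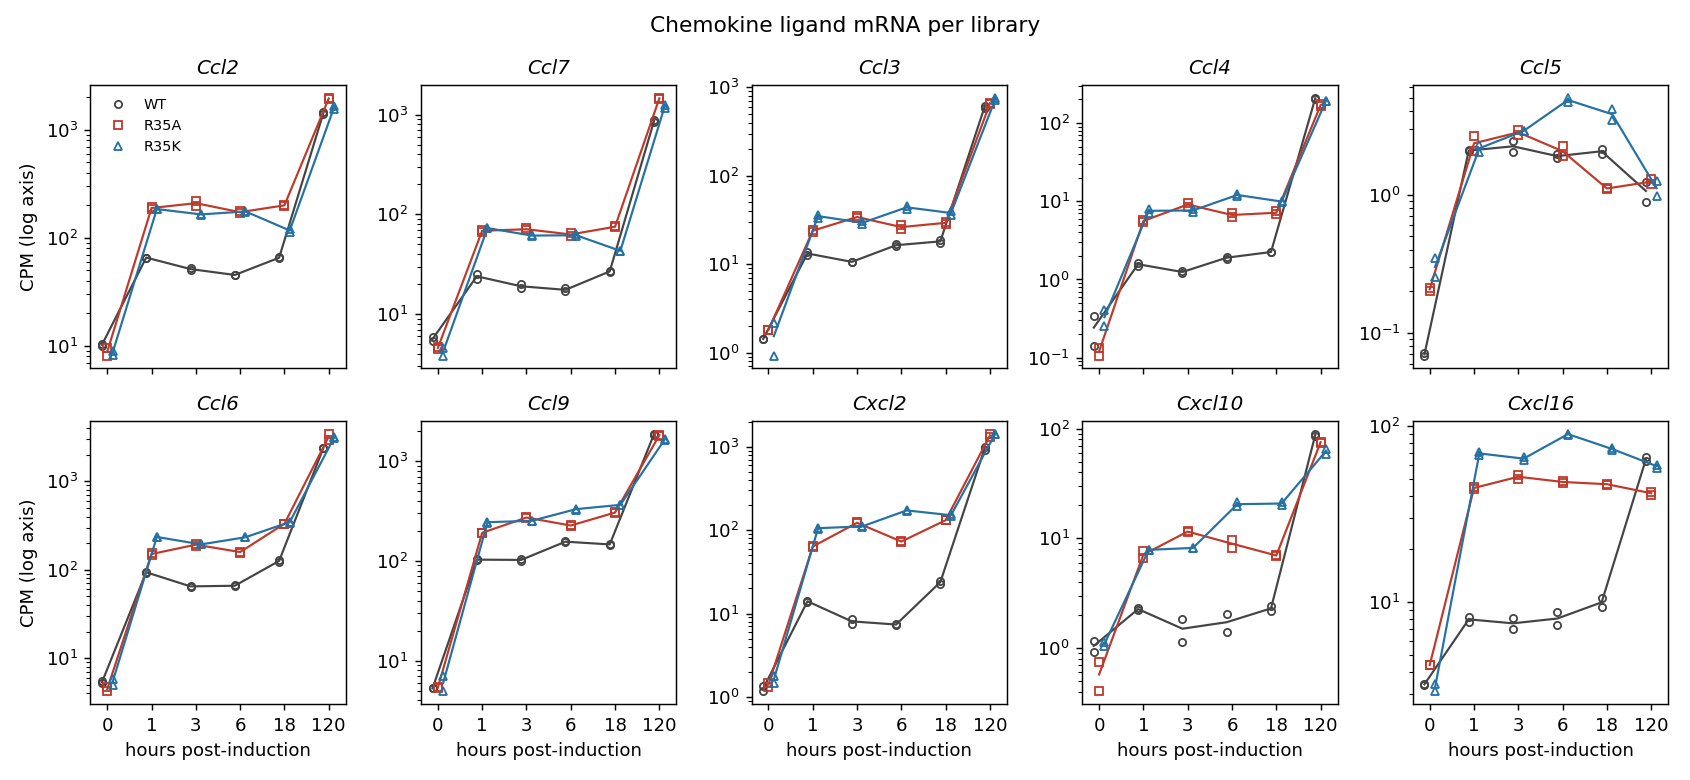
CPM (log axis) of each ligand gene in every library against hours post-induction (evenly spaced), with points for single libraries, lines for means of 2, and colours for the constructs. Except for Ccl5, whose highest WT mean was at 3 hpi, the genes had their highest WT level at 120 hpi. From 1 to 18 hpi the R35A and R35K libraries lay above the WT libraries of the same timepoint for every gene except Ccl5. R35K counts came in a table of their own.

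The monocyte attractants Ccl2 and Ccl7 were called higher than at 0 hpi at every later timepoint in each construct. Levels are given for replicate 1 and then 2 of each group, and where timepoints are not repeated they are those of the WT values. Ccl2 had 9.94 and 10.5 CPM before induction, 65.6 and 65.7 after 1 h, 50.4 and 52.4 after 3 h, 45.2 and 45.5 after 6 h, 65.0 and 65.8 after 18 h, and 1470 and 1404 after 120 h in WT libraries. Its WT means from 1 to 18 hpi thus lay between 3.15% and 4.57% of the 120 hpi mean. In R35A libraries Ccl2 had 8.12 and 9.53 CPM before induction, 194 and 184 after 1 h, 201 and 199 after 18 h, and 1928 and 1982 after 120 h. In R35K libraries it had 8.93 and 8.26, 184 and 185, 119.5 and 114, and 1675 and 1549 CPM at those timepoints. Every R35A and R35K library from 1 to 18 hpi was above every WT library of those timepoints. The change of Ccl2 from 0 to 1 hpi was larger than in WT cells by 1.72 ± 0.11 on the log2 scale in R35A cells (SE, edgeR adjusted p = 8.75e-20) and by 1.74 ± 0.11 in R35K cells (adjusted p = 1.25e-19). At 120 hpi the difference was 0.64 ± 0.10 in R35A cells (adjusted p = 1.138e-06) and 0.41 ± 0.10 in R35K cells, the latter short of 1.5-fold (adjusted p = 0.00465). Without R35A replicate 1 at 0 hpi the R35A difference was 0.55, also short of 1.5-fold. At 120 hpi 10 of the 12 feeder markers had a larger change in each mutant than in WT cells (background 9.63% in R35A and 7.51% in R35K cells). The median differences were 1.48 in R35A and 1.19 in R35K cells, and the part of the feeder markers in the 120 hpi values was not tested.

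Ccl7 had 5.35 and 5.91 CPM before induction, 22.5 and 25.5 after 1 h, 26.6 and 27.1 after 18 h, and 885 and 846 after 120 h in WT libraries. R35A libraries had 4.496 and 4.69, 69.8 and 67.4, 74.9 and 75.7, and 1476 and 1440 CPM. R35K libraries had 4.58 and 3.85, 73.0 and 73.0, 43.4 and 42.9, and 1247 and 1170 CPM. Ccl7 was the one ligand gene whose change was called larger than in WT cells at every timepoint in both mutants. The difference was 1.80 ± 0.14 (R35A) and 2.01 ± 0.14 (R35K) on the log2 scale at 1 hpi, and 1.04 ± 0.13 (adjusted p = 4.63e-09) and 0.89 ± 0.14 (adjusted p = 1.78e-06) at 120 hpi. In level at 120 hpi Ccl7 was higher in R35A than in WT cells by 0.75 ± 0.04 (adjusted p = 6.42e-25). Feeder markers were also higher there, 10 of 12 being called higher in R35A cells at 120 hpi (background 12.1%). Their sums were 636 and 619 CPM against 207 and 177 in WT libraries, and their part in the Ccl7 difference was not tested.

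In R35K cells Ccl2 and Ccl7 did not keep their 1 hpi level until 18 hpi. From 1 to 18 hpi their log2 changes were −0.66 ± 0.04 for Ccl2 (adjusted p = 7.54e-19) and −0.76 ± 0.05 for Ccl7 (adjusted p = 1.31e-18). In R35A cells they were 0.08 ± 0.04 and 0.13 ± 0.05, neither past the threshold. The change from 0 to 18 hpi was smaller in R35K than in R35A cells, with differences of −0.73 ± 0.11 for Ccl2 (adjusted p = 5.27e-07) and −0.68 ± 0.14 for Ccl7 (adjusted p = 0.00166). Without R35K replicate 1 at 0 hpi the Ccl7 difference was −0.55 (adjusted p = 0.112).

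Ccl3 and Ccl4, attractants of monocytes and T cells, were scarce at 0 hpi. Ccl3 had 1.44 and 1.42 CPM before induction, 12.8 and 13.7 after 1 h, 19.0 and 17.4 after 18 h, and 621 and 592 after 120 h in WT libraries. R35A libraries had 1.81 and 1.81, 24.6 and 23.4, 28.8 and 30.1, and 663 and 658 CPM. R35K libraries had 0.928 and 2.14, 36.5 and 33.7, 40.3 and 35.7, and 763 and 712 CPM, and at 0 hpi they stood apart from each other with 16 and 34 counts. Against WT cells the difference in change of Ccl3 was called in R35A cells only at 3 hpi (1.35 ± 0.30, adjusted p = 2.79e-04), with 0.52 ± 0.29 at 1 hpi (adjusted p = 0.201). In R35K cells it was called at 1, 3, 6 and 18 hpi, with 1.32 ± 0.31 at 1 hpi (adjusted p = 4.84e-04). The change in R35K exceeded that in R35A cells by 0.81 ± 0.27 at 1 hpi (adjusted p = 0.0235) and by 1.00 ± 0.27 at 6 hpi (adjusted p = 0.00404). Each of these R35K calls of Ccl3 was lost without R35K replicate 1 at 0 hpi, the library with 16 counts. Without it the difference from WT cells was between 0.49 at 18 hpi (adjusted p = 0.320) and 0.88 at 3 hpi (adjusted p = 0.0541), and that from R35A cells was 0.30 at 1 hpi (adjusted p = 0.601) and 0.49 at 6 hpi (adjusted p = 0.310). The 18 hpi call against WT cells was also lost without WT replicate 1 at 0 hpi, and the 1 hpi call against R35A cells without either R35A library at 0 hpi or R35K replicate 1 at 1 hpi.

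Ccl4 was near the detection limit before induction, with 5 and 2 counts in WT, 2 and 2 in R35A and 7 and 4 in R35K libraries at 0 hpi. WT libraries then had 1.64 and 1.49 CPM after 1 h, 2.23 and 2.26 after 18 h, and 209.9 and 205 after 120 h. At 1 hpi R35A libraries had 5.80 and 5.40 CPM and R35K libraries 7.15 and 7.94, all above the WT libraries, and at 120 hpi they had 175 and 163, and 192 and 191. The R35A libraries of 0 hpi were at or under the floor of 3 counts per library, and against that floor Ccl4 was at least 31.0-fold higher at 1 hpi and at least 937-fold higher at 120 hpi. The fitted difference in change from WT cells was called in R35A cells from 1 to 18 hpi, between 2.65 ± 0.75 at 18 hpi and 3.85 ± 0.78 at 3 hpi, and in R35K cells at 3 and 6 hpi. These fitted differences rest on few counts at 0 hpi and depend on the prior count. Without WT replicate 1 at 0 hpi none of them was called, with 3.104 (adjusted p = 0.115) in R35A and 1.44 (adjusted p = 0.512) in R35K cells at 3 hpi. The R35K calls were also lost without R35K replicate 2 at 0 hpi and the R35A call at 18 hpi without R35A replicate 2 at 0 hpi.

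Ccl5, made by T cells, NK cells and activated macrophages, departed from the others. It had 1 and 1 counts in WT, 3 and 4 in R35A and 6 and 4 in R35K libraries at 0 hpi. At 1 hpi WT libraries had 2.10 and 2.06 CPM, R35A libraries 2.06 and 2.64 and R35K libraries 2.03 and 2.30, so that the constructs overlapped. In WT cells Ccl5 was at least 9.93-fold higher at 1 than at 0 hpi. By 120 hpi it had dropped to 0.884 and 1.24 CPM in WT libraries, from 1.98 and 2.14 after 18 h (log2 change −0.96 ± 0.29, adjusted p = 0.00503), a call that was lost without WT replicate 1 at 120 hpi (adjusted p = 0.0553). In R35K libraries it had 5.02 and 4.66 CPM after 6 h, 3.49 and 4.15 after 18 h, and 1.25 and 0.975 after 120 h (log2 change from 18 hpi −1.77 ± 0.25, adjusted p = 6.22e-09). In R35A libraries the fall came earlier, from 1 hpi to 1.09 and 1.13 CPM after 18 h (log2 change −1.08 ± 0.24, adjusted p = 5.83e-04). No difference between constructs in the change of Ccl5 from 0 hpi was called, where the smallest adjusted p was 0.0888 (R35A against WT cells at 18 hpi).

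Ccl6, a CCR1 ligand, was the ligand mRNA with the most CPM at 120 hpi in each construct. It had 5.49 and 5.20 CPM before induction, 92.2 and 95.3 after 1 h, 64.1 and 65.8 after 3 h, 129 and 123 after 18 h, and 2402 and 2368 after 120 h in WT libraries. R35A libraries had 4.23 and 4.74, 148 and 154, 198 and 186, 330.2 and 332, and 2947 and 3460 CPM. R35K libraries had 5.80 and 4.98, 235 and 235, 193 and 194, 342 and 350, and 3127 and 3086 CPM, and from 1 hpi on both mutants lay above WT at each of these timepoints. The difference in change from WT cells was 0.93 ± 0.14 in R35A (adjusted p = 4.89e-07) and 1.31 ± 0.13 in R35K cells (adjusted p = 7.24e-12) at 1 hpi. At 120 hpi it was 0.67 ± 0.14 (adjusted p = 3.08e-04) and 0.36 ± 0.13 (adjusted p = 0.0822), and the former was 0.54, short of 1.5-fold, without R35A replicate 2 at 120 hpi. Between 1 and 18 hpi Ccl6 rose in R35A cells by 1.136 ± 0.04 on the log2 scale (adjusted p = 6.45e-29), and the WT change of 0.42 ± 0.05 was short of 1.5-fold.

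Ccl9, its neighbour and also a CCR1 ligand, had the largest WT change at 1 hpi among the genes above the detection floor at 0 hpi. WT libraries had 5.28 and 5.27 CPM before induction, 102 and 103 after 1 h, 145 and 147 after 18 h, and 1886 and 1839 after 120 h, with a log2 change of 4.28 ± 0.07 at 1 hpi (adjusted p = 6.76e-48). R35A libraries had 189.8 and 192, 301 and 309, and 1843 and 1793 CPM at 1, 18 and 120 hpi. R35K libraries had 240.1 and 248, 361 and 367, and 1647 and 1634 CPM. The mutants were thus above WT early, while at 120 hpi the R35A and WT libraries overlapped. The change to 1 hpi was larger than in WT cells by 0.87 ± 0.12 in R35A (adjusted p = 1.07e-06) and 1.06 ± 0.12 in R35K cells (adjusted p = 1.49e-09), the smallest called difference at that timepoint in each mutant. At 6 hpi the R35A difference of 0.52 ± 0.12 was short of 1.5-fold.

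Cxcl2, the neutrophil attractant, dipped in WT cells after its first rise. WT libraries had 1.17 and 1.35 CPM before induction, 13.8 and 14.3 after 1 h, 7.59 and 8.52 after 3 h, 7.46 and 7.31 after 6 h, 22.8 and 24.9 after 18 h, and 927 and 983 after 120 h. R35A libraries had 1.48 and 1.33, 63.8 and 63.6, 121 and 124, 73.4 and 72.8, 132 and 132, and 1440 and 1304 CPM. R35K libraries had 1.45 and 1.77, 104 and 108, 110.4 and 112, 169 and 176, 155 and 147, and 1429 and 1440 CPM. The WT level was thus lower at 3 and 6 hpi than at 1 hpi, whereas the R35A level was higher at 3 hpi and the R35K level highest at 6 hpi among the timepoints to 18 hpi; these steps were not tested. The difference in change from WT cells was largest at those timepoints, at 3.77 ± 0.29 on the log2 scale in R35A (adjusted p = 1.59e-16) and 4.199 ± 0.29 in R35K cells (adjusted p = 3.89e-18). At 6 hpi R35K exceeded R35A by 1.04 ± 0.23 (adjusted p = 0.00354). By 120 hpi the differences from WT cells, 0.37 ± 0.25 (adjusted p = 0.418) and 0.24 ± 0.24 (adjusted p = 0.652), were not called. The upstream sequence of this gene is the one shown above with 2 separate NF-kB matches and no ISRE match, and the part of these matches was not tested.

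Cxcl10, the ligand with an ISRE match among those whose promoter was searched, stayed low in WT cells until 18 hpi. The part of that match was not tested. WT libraries had 1.17 and 0.926 CPM before induction (17 and 13 counts), 2.30 and 2.24 after 1 h, 1.15 and 1.86 after 3 h, 2.03 and 1.41 after 6 h, 2.17 and 2.43 after 18 h, and 90.5 and 85.7 after 120 h. The WT change was 1.11 ± 0.28 at 1 hpi (adjusted p = 6.05e-04), 0.53 ± 0.30 at 3 hpi (adjusted p = 0.163) and 0.70 ± 0.30 at 6 hpi (adjusted p = 0.0478). The 6 hpi call was lost without WT replicate 1 (adjusted p = 0.0653) or 2 (0.233) at 0 hpi, or WT replicate 1 at 6 hpi (0.390). R35A libraries had 0.403 and 0.745 CPM before induction (6 and 14 counts), 7.64 and 6.60 after 1 h, 11.5 and 11.7 after 3 h, 9.69 and 8.22 after 6 h, 7.12 and 6.86 after 18 h, and 74.6 and 76.2 after 120 h. R35K libraries had 1.04 and 1.135, 7.87 and 7.88, 8.12 and 8.26, 21.3 and 19.8, 21.4 and 20.3, and 65.6 and 59.6 CPM at those timepoints. The R35K libraries of 6 and 18 hpi were thus above all R35A libraries of 1 to 18 hpi, though a level in R35K cells cannot be told apart from its table. By edgeR the R35K minus R35A difference in change from 0 hpi was 0.34 at 6 hpi (adjusted p = 0.647), and it was not called at 18 hpi either. From 1 to 18 hpi the log2 change was 1.40 ± 0.10 in R35K (adjusted p = 5.05e-17) and −0.03 ± 0.13 in R35A cells (adjusted p = 0.901). Against WT cells the change from 0 hpi was larger at 1 hpi by 2.46 ± 0.42 in R35A (adjusted p = 2.75e-06) and 1.74 ± 0.38 in R35K cells (adjusted p = 2.40e-04), and at 18 hpi by 2.41 ± 0.42 and 3.12 ± 0.39. The R35K change was called smaller than the R35A change at 3 hpi (−1.36 ± 0.38, adjusted p = 0.00976) and 120 hpi (−1.135 ± 0.37, adjusted p = 0.0382), and both values rest on the few R35A counts at 0 hpi. Without R35A replicate 1 at 0 hpi they were −1.03 (adjusted p = 0.137) and −0.81 (adjusted p = 0.300), and the calls were also lost without R35K replicate 2 at 0 hpi, that at 120 hpi also without R35K replicate 1 at 0 hpi or 2 at 120 hpi.

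Cxcl16, the transmembrane ligand, was already near its 120 hpi level at 1 hpi in the mutants. WT libraries had 3.36 and 3.42 CPM before induction, 7.69 and 8.19 after 1 h, 7.01 and 8.06 after 3 h, 7.33 and 8.72 after 6 h, 10.5 and 9.32 after 18 h, and 66.2 and 63.3 after 120 h. R35A libraries had 4.36 and 4.37, 43.7 and 45.1, 50.2 and 52.7, 48.7 and 47.4, 46.9 and 46.4, and 40.5 and 42.4 CPM. R35K libraries had 3.42 and 3.09, 68.5 and 71.2, 66.8 and 63.7, 90.6 and 89.4, 75.2 and 72.8, and 60.3 and 58.0 CPM. As a share of the same construct's mean at 120 hpi, Cxcl16 at 1 hpi was at 12.3% in WT, 107% in R35A and 118% in R35K cells. From 18 to 120 hpi it rose by 2.71 ± 0.07 on the log2 scale in WT cells (adjusted p = 1.33e-37), and its changes of −0.17 ± 0.06 in R35A and −0.32 ± 0.05 in R35K cells were short of 1.5-fold. That step differed from the WT step by −2.88 ± 0.10 (adjusted p = 4.66e-32) and −3.03 ± 0.09 (adjusted p = 3.87e-34). At 120 hpi the R35A minus WT difference in level was −0.64 ± 0.06 (adjusted p = 2.30e-13) and that in change from 0 hpi was −1.01 ± 0.17 (adjusted p = 2.65e-06). Cxcl16 was also the ligand gene whose change was called larger in R35K than in R35A cells at all 5 timepoints, between 0.76 ± 0.16 at 3 hpi and 1.32 ± 0.16 at 6 hpi.

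**Figure D3:**
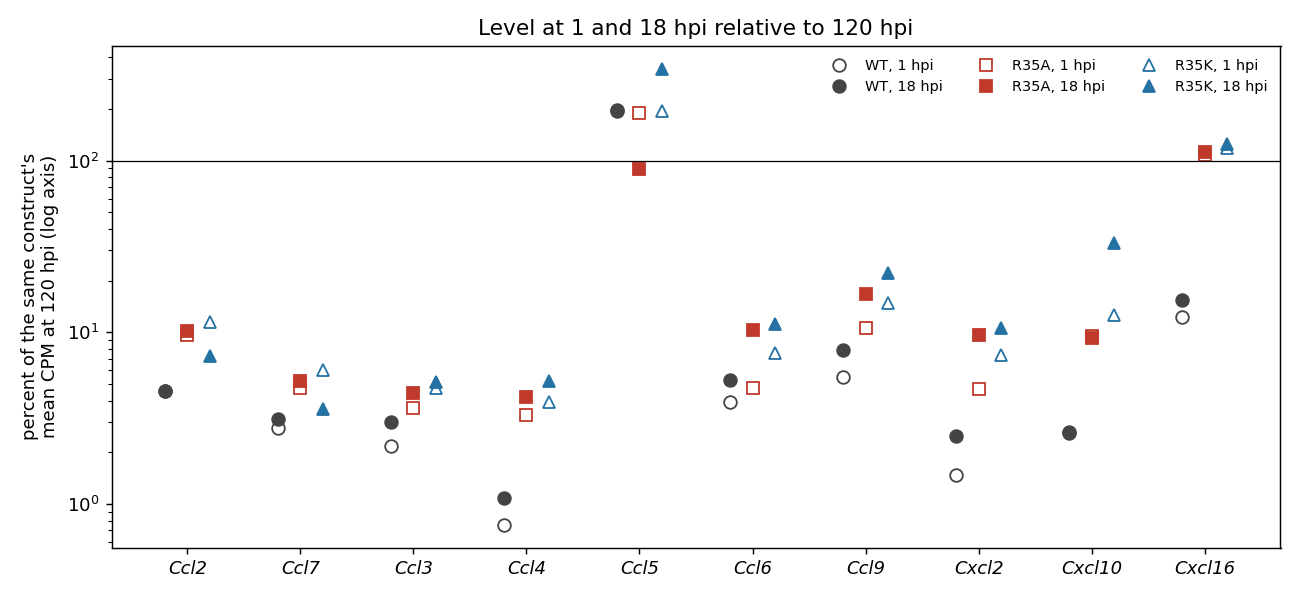
Mean CPM of each ligand gene at 1 and 18 hpi as percent of the same construct's mean at 120 hpi (log axis), for WT, R35A and R35K cells (means of 2 libraries). In WT cells every gene except Cxcl16 and Ccl5 was at 7.85% or less at both timepoints, whereas Cxcl16 was at 107% or more in both mutants and Ccl5 was above its 120 hpi level in all values but R35A at 18 hpi.

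Across the ligand genes the mutants exceeded the WT change at the early timepoints and for few genes at the last. Of the 8 genes other than Ccl4 and Ccl5, the change from 0 hpi was called larger in R35A than in WT cells for 7 after 1 h (background 5.97%), 8 after 3 h (5.81%), 6 after 6 h (4.19%) and 7 after 18 h (5.62%). Those not called were Ccl3 at 1, 6 and 18 hpi and Ccl9 at 6 hpi, while Ccl4 was called at each of these timepoints and Ccl5 at none. At 120 hpi 3 genes, Ccl2, Ccl7 and Ccl6, had a larger change in R35A cells (9.63%) and 1, Cxcl16, a smaller one (4.58%). In R35K cells the change was called larger than in WT cells for all 8 after 1 h (6.84%), 3 h (6.14%), 6 h (7.66%) and 18 h (8.91%), for Ccl4 at 3 and 6 hpi and Ccl5 at none of these, and for Ccl7 alone at 120 hpi (7.51%). Both sets of values share the WT libraries. The Ccl4 calls in both sets rest on few counts at 0 hpi and were lost without WT replicate 1 at 0 hpi. The median log2 difference of the 8 genes from 1 to 18 hpi lay between 1.76 and 2.21 in R35A and between 1.29 and 2.22 in R35K cells, and at 120 hpi it was 0.48 and 0.22, with medians of all genes between −0.01 and 0.07. Macrophage markers moved with the ligands. At 1 hpi 8 of 10 had a larger change in R35A and 9 of 10 in R35K than in WT cells. There 9 of 9 pre-B cell markers in R35A and 8 in R35K cells fell further than in WT cells. Of all 17277 genes, 1364 in R35A and 878 in R35K cells had a smaller change than in WT cells. Of the 12 feeder markers 1 had a larger change in each mutant at 1 hpi, and their sums at 1 hpi were 3666 and 3677 CPM in WT, 4140 and 4185 in R35A and 3409 and 3307 in R35K libraries. Their part in the differences between constructs was not tested.

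**Figure D4:**
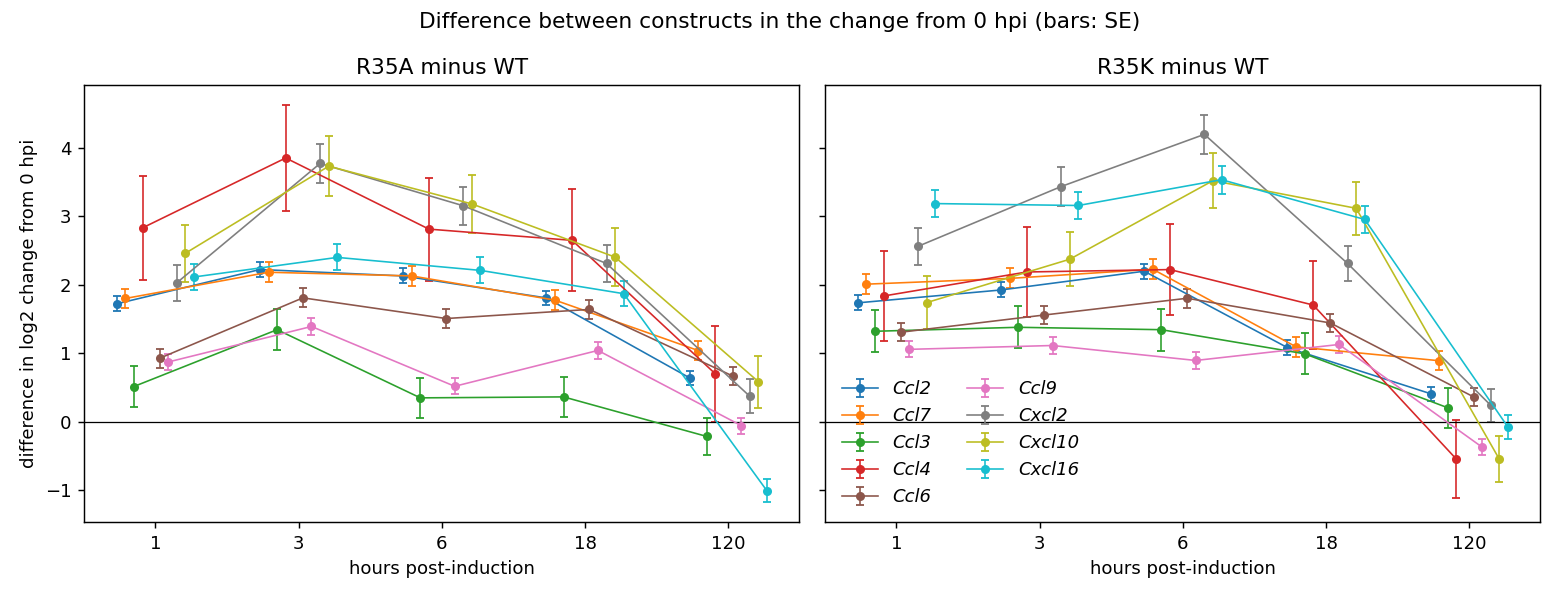
Difference between mutant and WT cells in log2 change from 0 hpi, against hours post-induction (evenly spaced), for the ligand genes other than Ccl5, with SE bars from the edgeR fit over 2 libraries per group. The values of Cxcl2 reached 3.77 at 3 hpi in R35A and 4.199 at 6 hpi in R35K cells, and at 120 hpi all values lay between −1.01 and 1.04.

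Within each mutant the 8 genes were called higher than at 0 hpi at every later timepoint. Ccl4 and Ccl5 were too, which is no check, since they passed the low-count filter only through later timepoints. The backgrounds were 18.9%, 18.7%, 18.9%, 21.5% and 26.5% of genes higher, in order of timepoint, in R35A cells, and 16.4%, 16.7%, 17.6%, 19.3% and 26.7% in R35K cells. The median log2 change of the 8 genes was 4.15 after 1 h and 4.26 after 18 h in R35A cells, and 4.48 and 4.57 in R35K cells. The feeder markers moved with the early rise in the mutants too: 11 of 12 were called higher at 1, 3, 6 and 18 hpi in R35A cells, with a median log2 change of 1.16 at 1 hpi, while in R35K cells the count was 9 after 1 h (median 0.87), 10 after 3 h, 8 after 6 h and 4 after 18 h. At 120 hpi 10 of them were called lower in each mutant, as were 6095 of all 17277 genes in R35A and 6140 in R35K cells. The part of the feeder markers in the ligand values was not tested. Between 1 and 18 hpi the changes called were few: Cxcl2 was higher in WT cells (background 10.6%), Ccl6, Ccl9 and Cxcl2 were higher (1.88%) and Ccl5 lower (3.69%) in R35A cells, and Ccl5 and Cxcl10 were higher (3.02%) and Ccl2 and Ccl7 lower (6.03%) in R35K cells. From 18 to 120 hpi 7 of the 8 genes, all but Cxcl16, rose in R35A (27.1%) and in R35K cells (25.6%), as did Ccl4, and Ccl5 fell in R35K cells (27.1%). That step was smaller than in WT cells for 7 of the 8 genes in R35A cells (10.8%), all but Ccl3, for 7 in R35K cells (12.7%), all but Ccl7, and for Ccl4 in both. Cxcl10 in R35K cells had the largest such difference, −3.67 ± 0.15 (adjusted p = 1.42e-28). That of Ccl2 in R35K cells was short of 1.5-fold without WT replicate 1 or R35K replicate 2 at 120 hpi, and by DESeq2 (−0.58).

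R35A and WT counts came in 1 table, so that their levels could be compared too. At 0 hpi no ligand gene was called different, nor was any other gene (0.00%), while 273 genes in all passed 1.5-fold at an unadjusted p of 0.05 or less, Cxcl10 among them, and DESeq2 called 1 gene, which was lower in R35A cells. At 120 hpi Ccl7 was higher in R35A cells (12.1%) and Cxcl16 lower (6.37%). Short of 1.5-fold, Cxcl2 was higher by 0.52 ± 0.04, Ccl2 by 0.44 ± 0.04 and Ccl6 by 0.43 ± 0.04 on the log2 scale, where Cxcl2 passed 1.5-fold without R35A replicate 2 at 120 hpi (0.59). Between the mutants, the change from 0 hpi was called larger in R35K than in R35A cells for Ccl3 and Cxcl16 at 1 hpi (4.15%), Cxcl16 at 3 hpi (2.25%), Ccl3, Cxcl2 and Cxcl16 at 6 hpi (4.69%), Cxcl16 at 18 hpi (2.26%) and Cxcl16 at 120 hpi (0.724%). It was called smaller for Cxcl10 at 3 hpi (0.764%) and 120 hpi (0.886%) and for Ccl2 and Ccl7 at 18 hpi (1.19%). A p that misses the threshold does not show that the mutants act alike.

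Levels of different genes were ordered per kb of transcript. In WT cells at 0 hpi Ccl2 led with 12.55 CPM per kb, ahead of Ccl7 (7.03) and Ccl6 (3.71). At 120 hpi the WT order was Ccl2 (1767 CPM per kb), Ccl6 (1656), Ccl7 (1080), Ccl3 (791), Ccl9 (620), Cxcl2 (514), Ccl4 (314), Cxcl10 (65.1), Cxcl16 (23.99) and Ccl5 (1.999), and the libraries of neighbours in that order did not overlap. In R35A cells at 120 hpi Ccl2 (2405) and Ccl6 (2225) overlapped, and in R35K cells Ccl6 (2157) stood above Ccl2 (1983). Cxcl16 ranked above Ccl4 and Cxcl10 at 1 hpi in each construct, and below both at 120 hpi. At 1 hpi it had 2.94 against 2.37 and 1.68 CPM per kb in WT cells. The values were 16.5 against 8.48 and 5.26 in R35A and 25.9 against 11.4 and 5.82 in R35K cells.

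Pearson r was taken across the 18 group means of log2 CPM. By it Ccl2 and Ccl7 (0.9896), Ccl3 and Ccl4 (0.9877), and Ccl6 and Ccl9 (0.9856) were each other's nearest ligand. Genes of different clusters were in part nearly as close, with 0.9853 for Ccl4 and Ccl7, while Ccl9 and Ccl7 had 0.9233. Ccl5 had the lowest values, between 0.36 with Ccl7 and 0.67 with Cxcl16. The groups share the time course, so that these values are a description with no test. Among all genes tested, the nearest by Pearson r were Nxpe5 for Ccl2, Stom for Ccl7, Vsir for Ccl3, Metrnl for Ccl4, Aldh3a1 for Ccl5, Cd200r1 for Ccl6, Emb for Ccl9, C3ar1 for Cxcl2, Slc16a10 for Cxcl10 and Galnt6os for Cxcl16, with r of 0.91 for Aldh3a1 (Ccl5) and 0.988 or more for the other 9. Galnt6os had at most 2.44 CPM in any group mean. By Spearman rho the nearest to Cxcl10 was Isg15 (0.99), an interferon-induced gene, and Mx1 (0.98) was among its nearest 3.

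Ccl8 and Ccl12, monocyte attractants of the same cluster as Ccl2 and Ccl7, had little mRNA before 120 hpi. Ccl12 had 0.137 and 0.142 CPM before induction and 152 and 135 after 120 h in WT, 324 and 359.8 after 120 h in R35A and 229 and 206 in R35K libraries, and from 1 to 18 hpi at most 1.24 CPM in any library. Ccl8 had no count in the WT libraries of 0 hpi and 16.1 and 16.3 CPM after 120 h, at least 77.3-fold higher, with 59.5 and 59.1 in R35A and 75.0 and 64.8 in R35K libraries at 120 hpi. At 1 hpi Ccl8 had 0.329 and 0.287 CPM in WT, 1.90 and 1.78 in R35A and 3.61 and 3.41 in R35K libraries, so that both genes stayed far below Ccl2 before 120 hpi. Of 24 other chemokine ligand genes, 17 were tested. At 1 hpi 12 were called higher in WT (background 10.0%), 14 in R35A (18.9%) and 15 in R35K cells (16.4%). At 120 hpi 8 (25.2%), 10 (26.5%) and 10 (26.7%) were higher. In each construct 4 were lower, against 6311 of all 17277 genes in WT, 6095 in R35A and 6140 in R35K cells. Pf4, a platelet and macrophage chemokine, had 27.5 and 29.3 CPM after 1 h in WT, 157 and 159 in R35A and 451 and 447 in R35K libraries.

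Of 9 receptor genes of these ligands 7 were tested. At 120 hpi 6 were called higher in WT (background 25.2%) and 5 in each mutant (R35A 26.5%, R35K 26.7%). In each construct 1 was lower, against 6311 of all 17277 genes in WT, 6095 in R35A and 6140 in R35K cells. Ccr2, the receptor of Ccl2 and Ccl7, had 1.17 and 0.926 CPM before induction, 15.5 and 14.0 after 1 h, and 2148 and 2301 after 120 h in WT libraries. R35A libraries had 29.1 and 29.0 CPM after 1 h and 739 and 771 after 120 h, and R35K libraries 46.1 and 47.3, and 1227 and 1313. The mutants were thus above WT early and below WT late for this receptor, with a difference in change at 120 hpi of −1.37 ± 0.30 in R35A (adjusted p = 0.00145) and −1.08 ± 0.27 in R35K cells (adjusted p = 0.00893). Ccr1, the receptor of Ccl6 and Ccl9, had 26.2 and 25.7 CPM after 1 h in WT, 63.3 and 64.0 in R35A and 67.8 and 70.1 in R35K libraries. The receptor of Cxcl2, Cxcr2, had at most 2.83 CPM in any library. The receptor gene called lower was Cxcr6, that of Cxcl16, named after its values were seen, with 3.09 and 3.42 CPM before induction and 0.884 and 1.15 after 120 h in WT libraries.

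Genes that respond to NF-kB or to interferon were counted, since Cxcl2 and Cxcl10 are known targets of these pathways. Of 14 NF-kB response genes 7 were called higher at 1 hpi in WT (background 10.0%) and 11 in each mutant (R35A 18.9%, R35K 16.4%). The change was larger than in WT cells for 7 in R35A (5.97%) and 9 in R35K cells (6.84%). Tnf, a cytokine gene of that list, had 10.4 and 10.4 CPM after 1 h and 6.12 and 5.28 after 3 h in WT, 41.3 and 41.8, and 84.7 and 87.7 in R35A and 40.0 and 41.0, and 46.8 and 45.3 in R35K libraries. Of 14 interferon response genes 6 were called higher at 1 hpi in WT and 8 in each mutant, against the same backgrounds. In R35A cells 1 was lower, against 3140 of all 17277 genes. All 14 were higher at 120 hpi in each construct (WT 25.2%, R35A 26.5%, R35K 26.7%). The change was larger than in WT cells for 9 of them in R35A (4.19%) and 14 in R35K cells (7.66%) at 6 hpi. At 18 hpi it was larger for 5 (5.62%) and 13 (8.91%). Mx1, an antiviral gene of that list, had 1.40 and 1.33 CPM after 18 h in WT, 4.56 and 3.48 in R35A and 30.1 and 29.1 in R35K libraries, and Rsad2 1.02 and 1.68, 6.16 and 4.25, and 34.7 and 33.4 CPM. R35K exceeded R35A in the change to 18 hpi by 3.64 ± 0.82 for Mx1 (adjusted p = 0.00106) and 2.88 ± 0.71 for Rsad2 (adjusted p = 0.00257), where that of Cxcl10 was 0.71 ± 0.40 (adjusted p = 0.304).

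Of 5 genes that act on chemokine mRNA decay or shedding, 2 were called higher at 1 hpi in WT cells (background 10.0%). In each mutant 3 were called higher there (R35A 18.9%, R35K 16.4%). All 5 were higher at 120 hpi in each construct (WT 25.2%, R35A 26.5%, R35K 26.7%). Zfp36, whose protein destabilises many cytokine and chemokine mRNAs, had 107 and 112 CPM before induction, 209 and 201 after 1 h, and 1822 and 1757 after 120 h in WT libraries. Adam17, a sheddase gene, changed at 1 hpi by 0.24 ± 0.05 in WT, 0.73 ± 0.04 in R35A and 1.22 ± 0.04 in R35K cells on the log2 scale, the first short of 1.5-fold.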

How the data were processed

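RNA was measured by mRNA sequencing (stranded libraries, single-end reads) in 36 libraries of 18 groups, grouped by the sample labels. The authors aligned reads to mm10 with STAR 2.5.0a, which also counted them; the annotation release and the strand column are not given in the sources used here. They deposited read counts per gene, in a table of WT and R35A and a table of R35K libraries, and log2 values made with DESeq2 1.14.1. Of 286 called ligand values, 286 had the same sign in the deposited log2 values. Those values are the same counts scaled by a factor per library, so this is no separate check.

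Here the counts of all 36 libraries were fitted once with edgeR 4.0.16 (R 4.3.3, limma 3.58.1; filterByExpr, TMM scaling, quasi-likelihood F test, Benjamini-Hochberg adjustment over 17277 genes, common biological coefficient of variation 3.27%). A gene was called at an adjusted p of at most 0.05 and at least 1.5-fold. CPM use TMM library sizes, and lower bounds a floor of 3 counts per library, which covers counting error only. The test was checked on simulated counts. Differences in change are interaction terms, and errors are SE. Each value stands for 2 libraries, called biological duplicates in the study's methods. Whether these came from separate animals is not given, so that p-values measure only the spread between libraries. Replicate numbers did not pair libraries: over 45 pairs of groups the correlation of deviations lay between −0.049 and 0.125 (median 0.0039).

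CPM per kb used the longest annotated coding transcript. The ligand genes, gene lists and marker lists were chosen with earlier results of these data known. From each list at most 4 genes are named, those with the largest WT change among the called. Lists were other chemokine ligands, receptors, NF-kB and interferon response genes, decay and shedding genes, and markers of macrophages, pre-B cells, feeder fibroblasts, neutrophils, T and NK cells, and dendritic and mast cells. Alternatives were DESeq2 1.42.0 (Wald test, or its size factors in edgeR), other filters, a 2-fold threshold, unadjusted p, a fit per table, a replicate block, and leaving out each library. The comparisons between R35K and R35A, from 1 to 18 hpi, and of the 18 to 120 hpi step were added after seeing the data. Values of some listed genes are not reported here.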

Additional observations from a re-analysis of the deposited data

Results flagged for a closer look

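A difference between constructs in the response of a gene was tested with the interaction term of the edgeR fit, and 40 largest called differences are given here on the log2 scale. The values against WT cells share the WT libraries. Those of Ccl4 for the change from 0 hpi rest on few counts at 0 hpi, and their calls were lost without WT replicate 1 at 0 hpi. For the change from 0 hpi, R35A minus WT, the largest called difference was 2.23 for Ccl2 at 3 hpi, 2.19 for Ccl7 at 3 hpi, 1.35 for Ccl3 at 3 hpi, 3.85 for Ccl4 at 3 hpi, 1.81 for Ccl6 at 3 hpi, 1.39 for Ccl9 at 3 hpi, 3.77 for Cxcl2 at 3 hpi, 3.73 for Cxcl10 at 3 hpi and 2.402 for Cxcl16 at 3 hpi. For the change from 0 hpi, R35K minus WT, the largest called difference was 2.20 for Ccl2 at 6 hpi, 2.23 for Ccl7 at 6 hpi, 1.38 for Ccl3 at 3 hpi, 2.22 for Ccl4 at 6 hpi, 1.81 for Ccl6 at 6 hpi, 1.13 for Ccl9 at 18 hpi, 4.199 for Cxcl2 at 6 hpi, 3.52 for Cxcl10 at 6 hpi and 3.54 for Cxcl16 at 6 hpi. For the change from 0 hpi, R35K minus R35A, the largest called difference was −0.73 for Ccl2 at 18 hpi, −0.68 for Ccl7 at 18 hpi, 0.9956 for Ccl3 at 6 hpi, 1.04 for Cxcl2 at 6 hpi, −1.36 for Cxcl10 at 3 hpi and 1.32 for Cxcl16 at 6 hpi. For the step from 18 to 120 hpi, R35A minus WT, it was −1.17 for Ccl2, −0.74 for Ccl7, −1.95 for Ccl4, −0.97 for Ccl6, −1.097 for Ccl9, −1.94 for Cxcl2, −1.82 for Cxcl10 and −2.88 for Cxcl16. For the step from 18 to 120 hpi, R35K minus WT, it was −0.67 for Ccl2, −0.79 for Ccl3, −2.25 for Ccl4, −1.08 for Ccl6, −1.50 for Ccl9, −2.07 for Cxcl2, −3.67 for Cxcl10 and −3.03 for Cxcl16. Groups of 2 libraries are too small for a search for outlying libraries.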

How the results depend on the processing

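None of the 286 called ligand values changed sign under any alternative; 26 lost the call at a 2-fold threshold, 20 when 1 library was left out, and 5 under another alternative. The counts and calls in this section take in all 10 ligand genes. For Ccl4 and Ccl5 a call against 0 hpi is no check, since they passed the low-count filter only through later timepoints. The replicate block left every count of called ligand genes as it was and changed no call. At 2-fold the counts were 2 for R35A minus WT at 120 hpi, 0 for R35K minus WT at 120 hpi, 0 for R35A against WT at 120 hpi, 1 each for R35K minus R35A at 1, 3, 18 and 120 hpi, 0 for WT from 1 to 18 hpi and 1 for R35K from 1 to 18 hpi. At an unadjusted p, 1 ligand gene (Cxcl10) differed between R35A and WT at 0 hpi. With no low-count filter the counts were 1 for R35K minus R35A at 1 and at 120 hpi. From 1 to 18 hpi in WT cells DESeq2 and its size factors in edgeR each gave 3. Leaving out 1 library gave between 1 and 2 called genes for R35K minus R35A at 1, 3 and 120 hpi and for R35K minus WT at 120 hpi, where the count was 2 without R35K replicate 2 at 0 hpi. Of the 114 values that were not called, 22 changed sign under an alternative, and 11 were called under one other than an unadjusted p. Leaving out 1 library turned these, with the lowest and highest value in parentheses. For R35K minus R35A these were Ccl2 (−0.12 to 0.12) and Ccl9 (−0.036 to 0.47) at 1 hpi, Ccl7 (−0.20 to 0.045), Ccl3 (−0.47 to 0.74) and Ccl9 (−0.50 to 0.010) at 3 hpi, Ccl2 (−0.060 to 0.17), Ccl7 (−0.014 to 0.24) and Cxcl10 (−0.21 to 0.67) at 6 hpi, Ccl9 (−0.13 to 0.38) and Cxcl2 (−0.14 to 0.15) at 18 hpi and Ccl3 (−0.083 to 1.12) and Cxcl2 (−0.27 to 0.014) at 120 hpi. For R35A minus WT it was Ccl4 (−0.046 to 1.18) at 120 hpi. For R35K minus WT these were Ccl3 (−0.29 to 0.91) and Cxcl16 (−0.14 to 0.0040) at 120 hpi. They further were Ccl9 (−1.908e-04 to 0.045), R35A against WT at 0 hpi, Ccl2 (−0.016 to 0.0020), Ccl5 (−0.075 to 0.039) and Cxcl10 (−0.064 to 0.10), WT from 1 to 18 hpi and Cxcl10 (−0.13 to 0.081), R35A from 1 to 18 hpi. By the DESeq2 Wald test the sign changed for Ccl2, R35K minus R35A at 1 hpi (−0.043), Ccl3, R35K minus R35A at 3 hpi (−0.0020), Cxcl2, R35K minus R35A at 18 hpi (−0.034), Ccl2, WT from 1 to 18 hpi (0.084) and Ccl5, WT from 1 to 18 hpi (0.076). With DESeq2 size factors in edgeR it changed for Ccl2, R35K minus R35A at 1 hpi (−0.043), Ccl3, R35K minus R35A at 3 hpi (−0.0034), Cxcl2, R35K minus R35A at 18 hpi (−0.033), Ccl2, WT from 1 to 18 hpi (0.084) and Ccl5, WT from 1 to 18 hpi (0.076). With no low-count filter it changed for Ccl9, R35A minus WT at 120 hpi (0.0046), Ccl9, R35A against WT at 120 hpi (0.016), Ccl2, R35K minus R35A at 1 hpi (−0.033), Cxcl2, R35K minus R35A at 18 hpi (−0.041) and Cxcl10, WT from 1 to 18 hpi (−0.0039). The WT call of Cxcl10 at 6 hpi was also lost with no filter (adjusted p = 0.129) and in the fit per table (adjusted p = 0.0533). Where a cause is not plain from the setting, the cause was not tested. Depth limits Ccl4 and Ccl5 most, with at most 7 counts per library at 0 hpi.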
